A study of Rattus norvegicus with 12 samples.

Results

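The mitosis and G2/M genes were a list of 53 genes whose products carry cells through G2 and mitosis. They were taken by gene symbol from the table of read counts, as the rows kept at more than 1 CPM (counts scaled to a common library size) in at least 2 of the 12 libraries. All 53 were in the table and all 53 were kept, out of 34034 rows and 14324 genes kept. They were sorted by known role into kinases and cyclins (9 genes), proteolysis and mitotic entry or exit (4), spindle motors (7), spindle assembly (9), kinetochore and checkpoint (14), cytokinesis (4), and condensin and chromosome structure (6).

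The data were bulk poly(A) RNA-seq of INS-1E cells, a rat insulinoma line used as a model of the pancreatic β-cell, labelled wild type. Untreated cells received no cytokine. IL-1βlow cells were held for 72 h in 10 pg/ml of interleukin-1β, and the cytokine was renewed daily. CYT cells were exposed for 16 h to a cytotoxic mixture of 100 pg/ml IL-1β and 5 ng/ml interferon-γ, and IL-1βlow + CYT cells received the low dose first and the mixture after a change of medium. Each group had 3 libraries labelled as biological replicates. INS-1E is a single tumour-derived line that divides in culture, so its mitotic transcripts were abundant before any treatment and cannot stand for those of islet β-cells, which rarely divide. In bulk RNA, fewer cells in G2 and mitosis and less RNA of these genes in each such cell cannot be told apart.

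Transcripts of mitotic genes accumulate late in the cell cycle. The transcription factors FOXM1 and B-MYB together with the MuvB complex switch them on, and the DREAM complex holds them down in cells that have left the cycle. Cyclin B and CDK1 then drive entry into mitosis, Polo-like and Aurora kinases build the spindle, the kinetochore and its checkpoint hold chromosomes until all are attached, and CDC20 with the anaphase-promoting complex starts their separation. Adult β-cells divide slowly, and inflammatory cytokines are known to slow β-cell division and to damage DNA through nitric oxide.

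Libraries held 15812640 to 20246806 counts. The 45S ribosomal transcript Rn45s took 6.89% to 11.1% of them. The smallest count of any of the 53 genes in any library was 50. Replicates of a group differed by more than counting error (chi-square over degrees of freedom from 6.67 to 25.3), and no library was a duplicate of another. Levels are given as CPM after TMM scaling, in replicate order 1, 2 and 3. IL-1βlow + CYT replicate 3 was the highest of its group for 28 of the 53 genes and the lowest for 24, and over all genes tested it was the highest for 39.1% and the lowest for 43.8%. Replicate 3 was the highest of its group for 30 mitotic genes in IL-1βlow and 27 in untreated cells. Counts that depend on the IL-1βlow + CYT library are also given without it. For fits without a library, the share of all genes was not computed, so these counts have no background beside them. β-cell markers were present in every library, with Ins1 between 6624 and 25763 CPM. The sum of 8 β-cell markers ranged from 42800 to 49656 CPM in untreated, 38168 to 44749 in IL-1βlow, 13934 to 14881 in CYT and 19895 to 25487 in IL-1βlow + CYT cells, so it was lowest in CYT libraries. The 3 α-cell markers, nearly all Gcg and with Irx2 at 0, summed to 185 to 367, 155 to 259, 24.2 to 63.1 and 73.1 to 151 CPM in the same order of groups. The 3 fibroblast markers, nearly all Pdgfra, summed to 12.6 to 16.4, 13.5 to 16.3, 6.004 to 7.21 and 9.498 to 11.9 CPM. The part of these lists in the results was not tested. The sums of 2 δ-cell, 3 endothelial and 3 immune markers stayed under 1.25 CPM in every library, with Hhex and Ptprc at 0.

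The promoters of mitotic genes are known for 2 elements, the cell cycle genes homology region (CHR), which the MuvB subunit LIN54 binds, and the CCAAT box, bound by NF-Y. RefSeq promoter sequences of the GRCr8 build were found for 48 of the 53 genes and not for Ccna2, Aurkb, Ube2c, Tpx2 and Racgap1. In the 250 bases before the start, TTTGAA or TTCGAA on either strand was present in 28 of 48 genes (58.3%, against 18.5% of the 27457 symbols in the table and 12.7% of the 10925 genes tested that had an entry). CCAAT on either strand was present in 37 of 48 (77.1%, against 36.1% and 37.0%). Both were present in 25 (52.1%, against 6.80% and 4.96%). The words are short and occur by base composition alone, so each match is a description of letters and not of a bound site. A gene without a CHR word is one with neither TTTGAA nor TTCGAA. Other spellings of the element were not searched, so such a gene cannot be said to lack it. The following 7 promoters are those of 3 genes at the centre of mitotic entry (Cdk1, Ccnb1 and Plk1), of the genes with the 2 largest decreases in CYT cells (Spc25 and Top2a), and of the genes with the 2 smallest differences (Bub3 and Gtse1). Each is written 5′ to 3′ on the gene's strand, and capitals mark every match to a CHR or CCAAT word on either strand.
Cdk1: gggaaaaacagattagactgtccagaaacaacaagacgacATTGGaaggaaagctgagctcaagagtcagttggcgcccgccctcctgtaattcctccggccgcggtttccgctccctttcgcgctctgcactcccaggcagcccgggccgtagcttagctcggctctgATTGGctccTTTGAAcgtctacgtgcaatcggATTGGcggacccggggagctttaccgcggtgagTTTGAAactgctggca
Ccnb1: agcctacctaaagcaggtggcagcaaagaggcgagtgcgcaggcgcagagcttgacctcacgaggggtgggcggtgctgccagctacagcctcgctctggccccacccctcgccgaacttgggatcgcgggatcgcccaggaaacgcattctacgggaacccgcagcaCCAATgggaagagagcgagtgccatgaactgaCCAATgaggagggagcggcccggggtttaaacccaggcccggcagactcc
Plk1: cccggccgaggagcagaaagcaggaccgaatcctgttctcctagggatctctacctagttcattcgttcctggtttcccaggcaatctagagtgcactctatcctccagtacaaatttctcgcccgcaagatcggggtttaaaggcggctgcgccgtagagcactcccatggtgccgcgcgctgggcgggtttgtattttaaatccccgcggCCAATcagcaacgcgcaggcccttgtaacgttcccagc
Spc25: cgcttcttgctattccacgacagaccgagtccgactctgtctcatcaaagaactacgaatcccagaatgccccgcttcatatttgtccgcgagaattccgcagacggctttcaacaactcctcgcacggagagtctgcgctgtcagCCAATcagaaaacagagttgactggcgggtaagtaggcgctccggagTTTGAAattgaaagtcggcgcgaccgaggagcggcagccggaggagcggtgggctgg
Top2a: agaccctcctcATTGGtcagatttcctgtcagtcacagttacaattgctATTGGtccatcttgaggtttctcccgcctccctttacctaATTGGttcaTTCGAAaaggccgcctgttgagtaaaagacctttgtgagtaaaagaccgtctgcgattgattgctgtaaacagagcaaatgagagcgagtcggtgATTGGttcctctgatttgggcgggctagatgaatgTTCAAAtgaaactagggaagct
Bub3: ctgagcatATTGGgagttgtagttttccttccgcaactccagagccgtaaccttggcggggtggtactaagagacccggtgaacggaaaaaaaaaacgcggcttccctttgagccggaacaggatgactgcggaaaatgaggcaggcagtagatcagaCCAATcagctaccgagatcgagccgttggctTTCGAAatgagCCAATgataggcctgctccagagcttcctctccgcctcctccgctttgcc
Gtse1: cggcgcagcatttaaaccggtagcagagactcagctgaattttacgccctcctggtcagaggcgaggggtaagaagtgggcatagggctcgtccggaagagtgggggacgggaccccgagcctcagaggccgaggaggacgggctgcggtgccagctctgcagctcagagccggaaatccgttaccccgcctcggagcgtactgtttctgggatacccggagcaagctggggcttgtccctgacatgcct
In GRCr8 these lie at chr20:19265043-19265292 (plus strand), chr2:33655226-33655475 (minus strand), chr1:186147408-186147657 (plus strand), chr3:74396719-74396968 (minus strand), chr10:84473094-84473343 (minus strand), chr1:195760282-195760531 (plus strand) and chr7:118829923-118830172 (plus strand). Cdk1 and Top2a each held 2 CHR words. Ccnb1 held neither CHR spelling searched and 2 CCAAT words, whose first bases lay 50 and 82 bases before the start. Bub3 held 3 CCAAT words, at 50, 92 and 242, and a CHR word at 61. Gtse1 held neither word. The 28 genes with a CHR word had a median log2 fold change of -1.37 between CYT and untreated cells, and the 20 without one had -1.21. The corresponding medians were -1.36 for the 37 genes with CCAAT and -1.08 for the 11 without. Promoter words and response were not tested against each other. Bub3, with both words, was at 89.0% of its untreated mean in CYT cells, and Plk1, with neither CHR spelling searched, at 35.3%. Spc25 and Top2a, also with both words, were at 21.3% and 23.1%, and Gtse1, with neither word, at 90.2%.

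Most mitotic genes were lower in CYT than in untreated cells. With edgeR's quasi-likelihood test and Benjamini-Hochberg adjusted p-values for all 14324 genes, 33 of the 53 passed the study's thresholds (an adjusted p below 0.01 with a log2 fold change of more than 1 in size) as lower in CYT than in untreated cells, against 11.6% of all genes tested. None passed as higher, against 10% of all genes. At an adjusted p under 0.05 with no minimum fold change, 50 were lower, against 31.7% of all genes tested. The median log2 fold change was -1.22, and -0.04 over all genes tested. Every one of the 53 estimates was below 0, from -2.23 for Spc25 to -0.15 for Gtse1. All 3 CYT libraries lay below all 3 untreated libraries for 51 of the 53 genes (35.3% of all genes), with Gtse1 and Bub3 as the exceptions. Together the 53 genes took 0.369% ± 0.0208 of the counts in untreated, 0.360% ± 0.0125 in IL-1βlow, 0.170% ± 0.00777 in CYT and 0.298% ± 0.00880 in IL-1βlow + CYT cells (SD, n = 3).

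**Figure D1:**
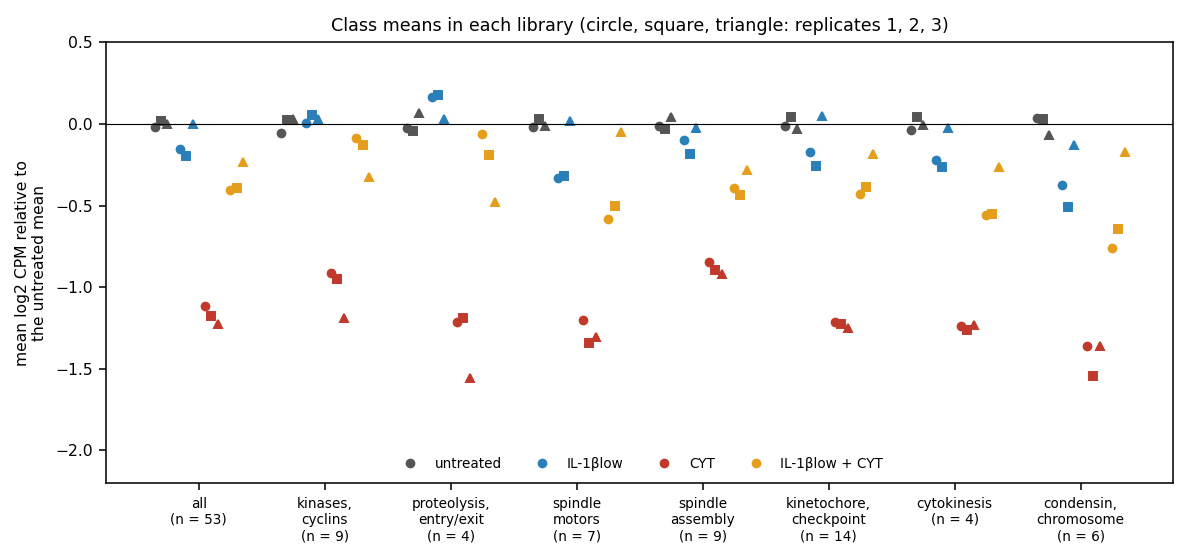
Mean log2 CPM of each class relative to its untreated mean (y axis) in each of the 12 libraries (circle, square and triangle for replicates 1, 2 and 3), with the number of genes per class under its name. CYT libraries lie lowest in every class, and IL-1βlow + CYT libraries lie between them and the untreated ones.

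All 9 kinases and cyclins were lower in CYT than in untreated cells at an adjusted p under 0.05, and 5 passed the thresholds. Cdk1, the kinase that drives entry into mitosis, was at 135, 137 and 132 CPM in the untreated, 139, 145 and 132 CPM in the IL-1βlow, 69.1, 66.0 and 54.5 CPM in the CYT and 121, 119 and 104 CPM in the IL-1βlow + CYT libraries. CYT libraries were the lowest, and every IL-1βlow + CYT library lay between them and the untreated ones without overlap. Cdk1 fell with CYT, at a log2 fold change of -1.09 (SE 0.10, edgeR adjusted p = 2.4e-07), which was -0.96 without CYT replicate 3, and had a difference between IL-1βlow + CYT and CYT cells of 0.86 (SE 0.10, edgeR adjusted p = 5.4e-06), under the minimum of 1.

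Ccnb1, the cyclin B1 partner of Cdk1, was at 88.2, 89.1 and 94.9 CPM in the untreated, 79.1, 84.9 and 93.2 CPM in the IL-1βlow, 35.5, 41.3 and 37.6 CPM in the CYT and 73.9, 73.3 and 68.2 CPM in the IL-1βlow + CYT libraries. Neither group given CYT overlapped the untreated one. It fell with CYT, at a log2 fold change of -1.25 (SE 0.09, edgeR adjusted p = 2.4e-08). Ccna2, the cyclin A2 of S and G2 phase, was at 77.9, 80.3 and 74.5 CPM in the untreated, 69.7, 68.3 and 78.5 CPM in the IL-1βlow, 28.6, 24.9 and 22.6 CPM in the CYT and 60.6, 56.8 and 60.1 CPM in the IL-1βlow + CYT libraries. Neither CYT nor IL-1βlow + CYT libraries overlapped the untreated ones. Its log2 fold change with CYT, -1.61 (SE 0.10, edgeR adjusted p = 4.7e-09), was the largest of the class. It rose between CYT and IL-1βlow + CYT cells by 1.22 (SE 0.10, edgeR adjusted p = 2.9e-07), also the largest of the class, and stayed below untreated cells, at -0.39 (SE 0.09, edgeR adjusted p = 0.0068). Ccnb2, cyclin B2, fell to 38.8% of its untreated mean with CYT and stood at 88.4% in IL-1βlow + CYT cells.

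Plk1, the Polo-like kinase of spindle assembly and mitotic exit, was at 97.5, 103 and 106 CPM in the untreated, 107, 118 and 98.9 CPM in the IL-1βlow, 40.0, 40.0 and 28.0 CPM in the CYT and 92.7, 90.8 and 63.4 CPM in the IL-1βlow + CYT libraries. In both groups given CYT, replicate 3 was the lowest library. Plk1 fell with CYT, at a log2 fold change of -1.505 (SE 0.15, edgeR adjusted p = 1.1e-06) and was higher in IL-1βlow + CYT than in CYT cells by 1.19 (SE 0.15, edgeR adjusted p = 2.0e-05). Its gene overlaps Ern2, which had no count in untreated or CYT libraries. Aurkb, the kinase of the chromosomal passenger complex, was at 75.4, 79.7 and 77.4 CPM in the untreated, 91.4, 89.4 and 90.3 CPM in the IL-1βlow, 55.9, 53.6 and 43.2 CPM in the CYT and 84.9, 81.8 and 77.7 CPM in the IL-1βlow + CYT libraries. CYT libraries were the lowest, and IL-1βlow libraries lay above the untreated ones without overlap. The difference with CYT was -0.61 (SE 0.09, edgeR adjusted p = 5.5e-05) and did not reach the minimum, and IL-1βlow against untreated gave 0.22 (SE 0.09, edgeR adjusted p = 0.31). Aurka, which acts at centrosomes, was at 51.7% of the untreated mean in CYT cells. It overlaps Fam210b, which itself was lower, at a log2 fold change of -1.08.

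The phosphatases Cdc25b and Cdc25c, which activate CDK1, differed least within the class. Cdc25b was at 103 ± 6.42 CPM in untreated and 79.5 ± 11.4 CPM in CYT cells (SD, n = 3), and its log2 fold change was -0.38 (SE 0.10, edgeR adjusted p = 0.0051). Cdc25c had a log2 fold change of -0.38 (SE 0.12, edgeR adjusted p = 0.012). In IL-1βlow + CYT cells they stood at 99.9% and 99.0% of their untreated means.

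**Figure D2:**
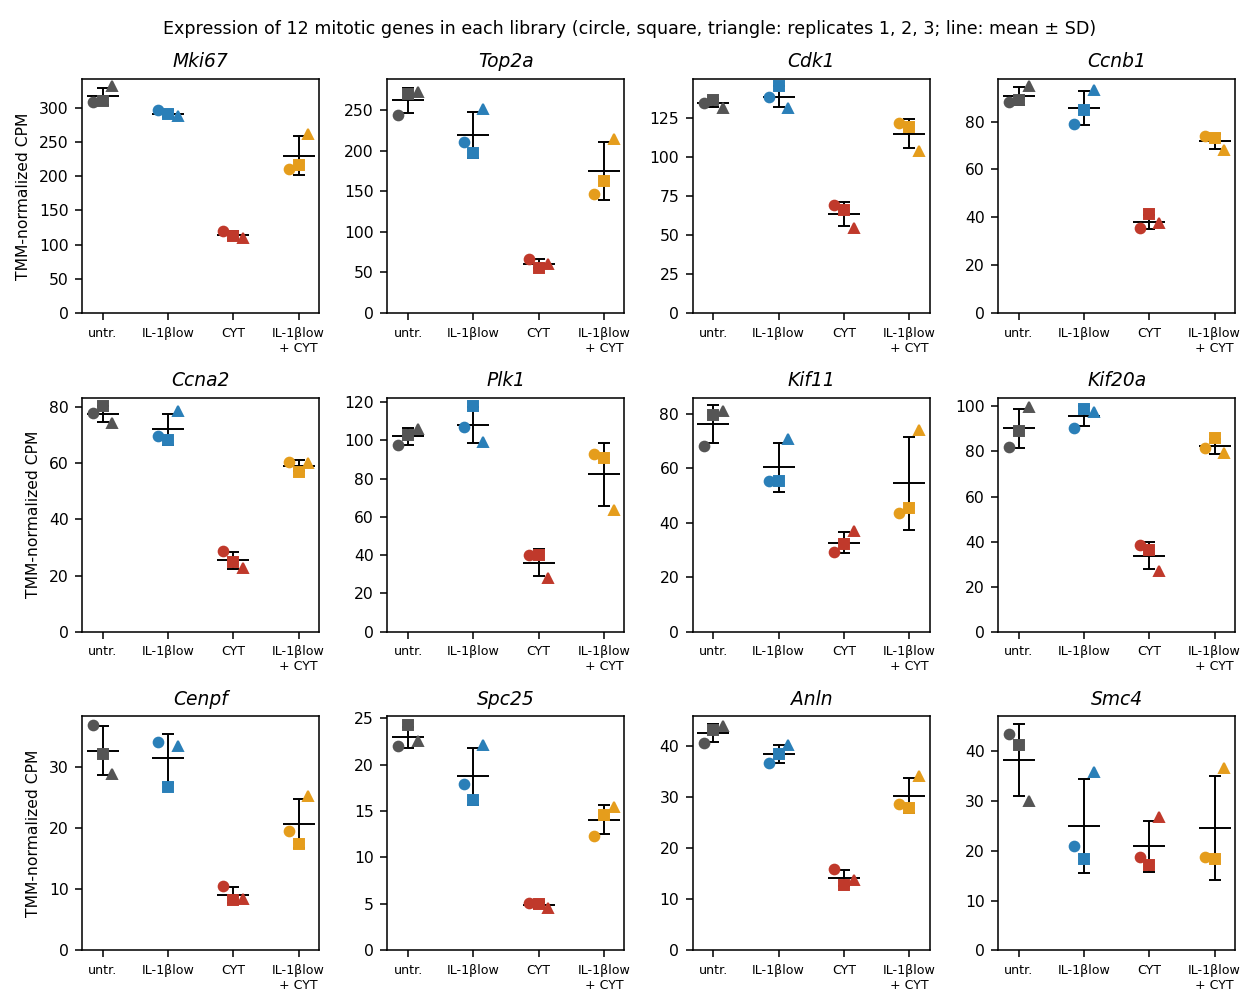
TMM-normalized CPM (y axis, from 0) of 12 mitotic genes in each library of the 4 groups, with circle, square and triangle for replicates 1, 2 and 3 and a line with a bar for the mean ± SD of 3 libraries. CYT libraries are lowest for 11 of the 12 genes, and for Smc4 they overlap those of both groups given IL-1βlow.

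Of the 4 genes of proteolysis and mitotic entry or exit, 3 fell with CYT, and all 4 were lower at an adjusted p under 0.05. Cdc20, the activator of the anaphase-promoting complex, was at 125, 123 and 137 CPM in the untreated, 145, 155 and 130.0 CPM in the IL-1βlow, 62.1, 60.6 and 42.6 CPM in the CYT and 115, 117 and 91.6 CPM in the IL-1βlow + CYT libraries. All CYT libraries lay under all others, and replicate 3 was again the lowest with CYT. The log2 fold change was -1.22 (SE 0.14, edgeR adjusted p = 2.7e-06), and 0.97 (SE 0.14, edgeR adjusted p = 4.4e-05) between IL-1βlow + CYT and CYT cells. Cdca3, a trigger of mitotic entry, was at 30.7, 28.8 and 33.3 CPM in the untreated, 34.1, 31.9 and 28.6 CPM in the IL-1βlow, 9.29, 9.21 and 8.08 CPM in the CYT and 29.7, 27.5 and 21.0 CPM in the IL-1βlow + CYT libraries. Its CYT libraries lay far below all others, and its IL-1βlow + CYT libraries overlapped the untreated ones. With CYT it fell, at a log2 fold change of -1.80 (SE 0.14, edgeR adjusted p = 6.1e-08), and it rose between CYT and IL-1βlow + CYT cells by 1.56 (SE 0.14, edgeR adjusted p = 8.0e-07), the largest such value of all 53 genes. Cdca3 overlaps Usp5, whose log2 fold change with CYT was -0.32. Pttg1, the securin that restrains separase, was at 38.5, 36.8 and 40.3 CPM in the untreated, 48.5, 45.7 and 43.7 CPM in the IL-1βlow, 16.1, 16.7 and 12.1 CPM in the CYT and 41.2, 36.5 and 29.7 CPM in the IL-1βlow + CYT libraries. Its IL-1βlow libraries were the highest, and CYT libraries the lowest. It fell with CYT, at a log2 fold change of -1.37 (SE 0.14, edgeR adjusted p = 9.8e-07). Ube2c, the ubiquitin-conjugating enzyme of the same complex, had the smallest difference of the class, -0.87 (SE 0.10, edgeR adjusted p = 6.3e-06).

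Of the 7 spindle motors, all kinesins, 6 fell with CYT. Kif11, the motor that pushes spindle poles apart, was at 68.3, 79.7 and 81.0 CPM in the untreated, 55.2, 55.3 and 70.8 CPM in the IL-1βlow, 29.2, 32.1 and 36.9 CPM in the CYT and 43.7, 45.5 and 74.2 CPM in the IL-1βlow + CYT libraries. CYT libraries were lowest, and IL-1βlow + CYT replicate 3 lay above the other 2 replicates and among the untreated libraries. Its log2 fold change was -1.22 (SE 0.18, edgeR adjusted p = 4.0e-05) with CYT and 0.73 (SE 0.18, edgeR adjusted p = 0.0035) between IL-1βlow + CYT and CYT cells. Kif20a, a motor of the central spindle, was at 82.2, 88.9 and 99.6 CPM in the untreated, 90.6, 99.0 and 97.7 CPM in the IL-1βlow, 38.3, 36.1 and 26.8 CPM in the CYT and 81.4, 85.9 and 79.5 CPM in the IL-1βlow + CYT libraries. The groups other than CYT overlapped, apart from IL-1βlow and IL-1βlow + CYT, and CYT libraries lay far below. With CYT it fell, at a log2 fold change of -1.42 (SE 0.12, edgeR adjusted p = 1.5e-07), and it rose in IL-1βlow + CYT against CYT cells by 1.29 (SE 0.12, edgeR adjusted p = 1.1e-06). It overlaps Cdc23, a subunit of the anaphase-promoting complex, whose log2 fold change with CYT was -0.68.

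The largest decrease among the motors was that of Kif20b, at 30.9, 26.9 and 19.6 CPM in the untreated, 20.7, 16.9 and 25.8 CPM in the IL-1βlow, 10.3, 7.17 and 8.38 CPM in the CYT and 10.3, 12.7 and 21.9 CPM in the IL-1βlow + CYT libraries, with a log2 fold change of -1.58 (SE 0.26, edgeR adjusted p = 1.2e-04). Its untreated libraries were spread widely, and the lowest of them overlapped an IL-1βlow + CYT library. Kif4a, the chromokinesin, and Kif23, the centralspindlin motor, fell to 34.6% and 38.7% of their untreated means. Kif2c, a microtubule depolymerase at centromeres, fell to 43.7%. Kif18a, which sets chromosome alignment at the spindle equator, was the motor that passed neither rule. It was at 8.13, 6.69 and 5.41 CPM in the untreated, 3.28, 3.496 and 7.22 CPM in the IL-1βlow, 4.18, 3.15 and 5.21 CPM in the CYT and 4.01, 4.87 and 10.9 CPM in the IL-1βlow + CYT libraries. Replicate 3 was the highest in 3 of the 4 groups, and the log2 fold change with CYT was -0.69 (SE 0.37, edgeR adjusted p = 0.12). Its standard error was the largest among the 53 genes.

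Of 9 spindle assembly genes, 4 fell with CYT (Hmmr, Aspm, Tpx2 and Nusap1), 4 more were lower at an adjusted p under 0.05 (Tacc3, Knstrn, Dlgap5 and Ckap2), and Gtse1 passed neither rule. The call of Nusap1, at -1.03, was lost with no filter on low counts (-0.96), without untreated replicate 1 (-0.975) and without CYT replicate 2 (-0.977). Tpx2, which activates Aurora A on the spindle, was at 128, 129.9 and 135 CPM in the untreated, 131, 125 and 126 CPM in the IL-1βlow, 62.5, 62.8 and 56.3 CPM in the CYT and 108, 108 and 105 CPM in the IL-1βlow + CYT libraries. No group given CYT overlapped the untreated or IL-1βlow libraries. Its log2 fold change was -1.11 (SE 0.07, edgeR adjusted p = 1.0e-08) with CYT, 0.83 (SE 0.07, edgeR adjusted p = 6.8e-07) between IL-1βlow + CYT and CYT cells, and -0.29 (SE 0.07, edgeR adjusted p = 0.0087) between IL-1βlow + CYT and untreated cells. Hmmr, a spindle pole protein that is also a hyaluronan receptor, was at 36.4, 38.8 and 36.7 CPM in the untreated, 24.0, 20.9 and 32.1 CPM in the IL-1βlow, 12.4, 11.2 and 13.4 CPM in the CYT and 17.4, 18.2 and 29.3 CPM in the IL-1βlow + CYT libraries. All untreated libraries lay above all others. Its log2 fold changes were -1.59 (SE 0.19, edgeR adjusted p = 6.6e-06) with CYT, -0.79 (SE 0.19, edgeR adjusted p = 0.0067) for IL-1βlow + CYT against untreated and -0.54 (SE 0.19, edgeR adjusted p = 0.21) for IL-1βlow against untreated. Aspm, a protein of spindle poles, fell to 35.1% of the untreated mean with CYT and stood at 69.7% in IL-1βlow + CYT cells.

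Gtse1, a microtubule-binding protein that also restrains p53, was at 76.0, 67.4 and 75.1 CPM in the untreated, 72.5, 73.0 and 70.9 CPM in the IL-1βlow, 67.5, 70.1 and 59.6 CPM in the CYT and 76.1, 73.9 and 62.7 CPM in the IL-1βlow + CYT libraries. Untreated, CYT and IL-1βlow + CYT libraries overlapped, while all CYT libraries lay below the IL-1βlow ones. The log2 fold change with CYT was -0.15 (SE 0.09, edgeR adjusted p = 0.18). Ckap2 had mean levels of 34.5 ± 3.12 CPM without cytokine, 24.0 ± 0.932 with CYT and 26.2 ± 3.31 with IL-1βlow + CYT, and Dlgap5 of 31.6 ± 2.73, 21.0 ± 0.825 and 24.3 ± 1.70 (SD, n = 3). Between IL-1βlow + CYT and CYT cells their log2 fold changes were 0.13 (SE 0.11, edgeR adjusted p = 0.36) and 0.21 (SE 0.10, edgeR adjusted p = 0.11). The table also holds a row named Ckap2-ps3, at 34.5 ± 1.67 CPM in untreated and 22.3 ± 1.40 CPM in CYT cells, so reads of Ckap2 may be shared with it and its values are uncertain.

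**Figure D3:**
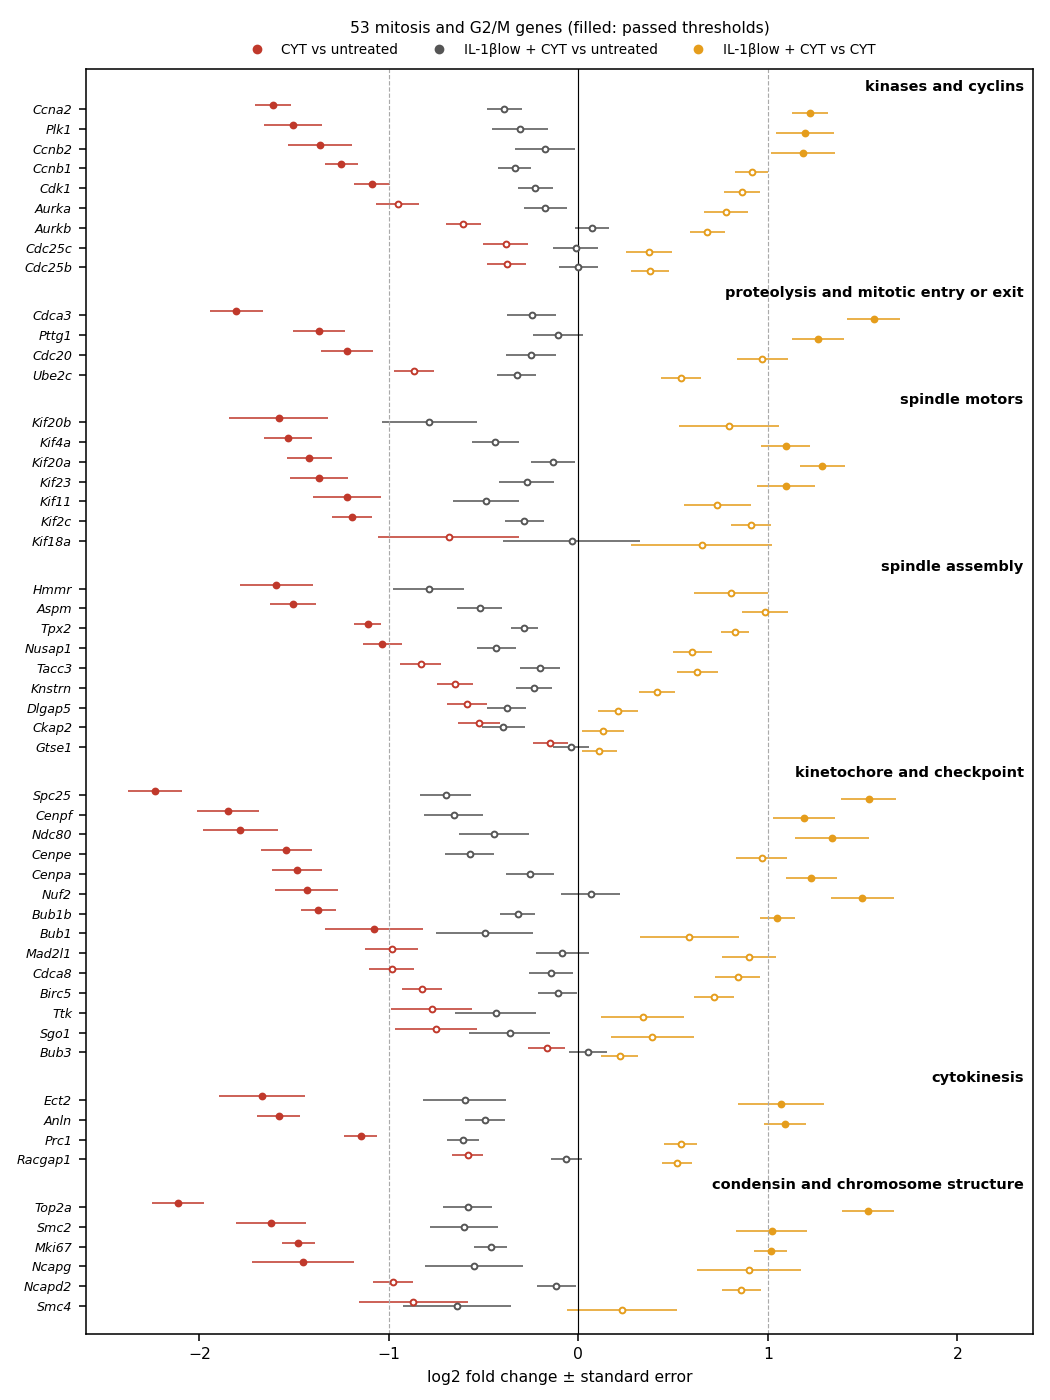
Log2 fold change ± standard error (x axis) of the 53 genes, ordered within each class by the CYT response, for CYT against untreated (red), IL-1βlow + CYT against untreated (grey) and IL-1βlow + CYT against CYT (yellow). Filled points passed the thresholds, and dashed lines mark -1 and 1. The comparisons share libraries, and no grey point is filled.

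Of 14 kinetochore and checkpoint genes, 8 fell with CYT and 13 were lower at an adjusted p under 0.05. The NDC80 complex, which couples kinetochores to microtubules, held the largest decrease of the list. Its subunit Spc25 was at 22.0, 24.2 and 22.6 CPM in the untreated, 17.9, 16.2 and 22.1 CPM in the IL-1βlow, 5.11, 4.95 and 4.55 CPM in the CYT and 12.3, 14.5 and 15.4 CPM in the IL-1βlow + CYT libraries. CYT libraries were far below all others, and the IL-1βlow + CYT libraries lay between the CYT and IL-1βlow libraries. Spc25 fell with CYT, at a log2 fold change of -2.23 (SE 0.14, edgeR adjusted p = 9.8e-09), rose in IL-1βlow + CYT against CYT cells by 1.53 (SE 0.14, edgeR adjusted p = 1.3e-06), and stayed below untreated cells, at -0.70 (SE 0.13, edgeR adjusted p = 0.0013). Spc25 overlaps Nostrin, at 3.58 ± 0.125 CPM in untreated and 2.64 ± 0.777 CPM in CYT cells.

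Ndc80, the subunit that gives the complex its name, was at 21.8, 23.3 and 22.6 CPM in the untreated, 18.7, 16.4 and 24.9 CPM in the IL-1βlow, 6.36, 6.70 and 6.59 CPM in the CYT and 12.04, 16.2 and 21.5 CPM in the IL-1βlow + CYT libraries. Nuf2, its partner in the microtubule-binding arm, was at 16.4, 17.2 and 19.5 CPM in the untreated, 17.4, 15.3 and 22.2 CPM in the IL-1βlow, 7.55, 5.42 and 6.65 CPM in the CYT and 16.3, 18.7 and 20.6 CPM in the IL-1βlow + CYT libraries. Both were lowest in all CYT libraries, while in IL-1βlow + CYT cells all 3 Ndc80 libraries lay below the untreated ones and the Nuf2 libraries overlapped them. The log2 fold change with CYT was -1.78 (SE 0.20, edgeR adjusted p = 2.4e-06) for Ndc80 and -1.43 (SE 0.17, edgeR adjusted p = 4.2e-06) for Nuf2, and between IL-1βlow + CYT and untreated cells -0.45 (SE 0.18, edgeR adjusted p = 0.1) and 0.07 (SE 0.16, edgeR adjusted p = 0.8). The difference between the 2 genes was not tested.

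Cenpa, the histone H3 variant of centromeres, was at 34.7, 35.2 and 30.2 CPM in the untreated, 31.6, 32.1 and 33.5 CPM in the IL-1βlow, 13.6, 12.6 and 9.61 CPM in the CYT and 29.9, 29.5 and 24.4 CPM in the IL-1βlow + CYT libraries. CYT libraries were lowest with no overlap, and IL-1βlow + CYT libraries lay just under the untreated ones. With CYT it fell, at a log2 fold change of -1.48 (SE 0.13, edgeR adjusted p = 3.2e-07), and it rose in IL-1βlow + CYT against CYT cells by 1.23 (SE 0.13, edgeR adjusted p = 4.7e-06). Cenpf, a large protein of the outer kinetochore, was at 36.9, 32.3 and 28.9 CPM in the untreated, 34.1, 26.8 and 33.4 CPM in the IL-1βlow, 10.54, 8.22 and 8.49 CPM in the CYT and 19.5, 17.5 and 25.3 CPM in the IL-1βlow + CYT libraries. The IL-1βlow + CYT libraries lay above the CYT ones and below both groups without CYT. It fell, with a log2 fold change of -1.85 (SE 0.16, edgeR adjusted p = 2.6e-07), and its log2 fold change between IL-1βlow + CYT and IL-1βlow cells, -0.60 (SE 0.15, edgeR adjusted p = 0.017), was the largest of the list in that comparison. Cenpe, the kinetochore motor, fell to 34.4% of untreated with CYT and was at 67.2% in IL-1βlow + CYT cells.

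Bub1b, the checkpoint protein BUBR1, was at 54.5, 57.3 and 66.6 CPM in the untreated, 57.1, 54.3 and 59.04 CPM in the IL-1βlow, 23.6, 22.8 and 22.5 CPM in the CYT and 47.4, 44.8 and 50.7 CPM in the IL-1βlow + CYT libraries. CYT libraries lay under all others, and IL-1βlow + CYT libraries lay under those of both groups without CYT. With CYT it fell, at a log2 fold change of -1.37 (SE 0.09, edgeR adjusted p = 2.0e-08), and it rose in IL-1βlow + CYT against CYT cells by 1.05 (SE 0.09, edgeR adjusted p = 9.0e-07). Bub3, which binds BUBR1 in the same checkpoint complex and also has roles outside mitosis, was at 111, 116 and 115 CPM in the untreated, 122, 138 and 113 CPM in the IL-1βlow, 97.1, 114 and 93.3 CPM in the CYT and 124, 124 and 105 CPM in the IL-1βlow + CYT libraries. Its 4 groups overlapped, and its log2 fold change with CYT was -0.17 (SE 0.10, edgeR adjusted p = 0.16). Relative to Bub3 and to the untreated mean, log2 Bub1b was -1.19 ± 0.157 in the CYT libraries and -0.36 ± 0.220 in those given IL-1βlow + CYT (SD, n = 3).

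Bub1, the kinase that recruits other checkpoint proteins, was at 34.6, 37.5 and 30.9 CPM in the untreated, 23.2, 19.9 and 36.2 CPM in the IL-1βlow, 13.5, 15.7 and 19.5 CPM in the CYT and 18.7, 18.4 and 36.3 CPM in the IL-1βlow + CYT libraries. In IL-1βlow and IL-1βlow + CYT cells, replicate 3 lay far above the other 2 replicates. Bub1 fell with CYT, at a log2 fold change of -1.08 (SE 0.26, edgeR adjusted p = 0.0024), but this was lost without untreated replicate 2 (-0.99), CYT replicate 1 (-0.93) or CYT replicate 2 (-1.06, edgeR adjusted p = 0.010). Between IL-1βlow + CYT and CYT cells the value was 0.58 (SE 0.26, edgeR adjusted p = 0.076). Mad2l1, the checkpoint protein MAD2, was at 50.5% of untreated in CYT cells and 94.4% in IL-1βlow + CYT cells. The kinase Ttk and the cohesin protector Sgo1 were lower with CYT, at -0.77 (SE 0.22, edgeR adjusted p = 0.0062) and -0.75 (SE 0.22, edgeR adjusted p = 0.0076), and neither passed between IL-1βlow + CYT and CYT cells.

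Birc5, or survivin, a subunit of the chromosomal passenger complex that is also known as an inhibitor of apoptosis, was at 50.5, 52.0 and 48.5 CPM in the untreated, 57.9, 58.5 and 50.8 CPM in the IL-1βlow, 29.2, 30.0 and 26.0 CPM in the CYT and 51.3, 48.2 and 40.4 CPM in the IL-1βlow + CYT libraries. CYT libraries lay under all others, and the other groups overlapped. It was lower, at a log2 fold change of -0.83 (SE 0.10, edgeR adjusted p = 9.7e-06), under the minimum. The 2 other members of that complex on the list, Aurkb and Cdca8, were also lower without passing, with log2 fold changes of -0.61 and -0.99.

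Of 4 cytokinesis genes, 3 fell with CYT and all 4 were lower at an adjusted p under 0.05. Anln, the actin-binding scaffold of the contractile ring, was at 40.6, 43.0 and 43.8 CPM in the untreated, 36.7, 38.4 and 40.1 CPM in the IL-1βlow, 15.9, 12.8 and 13.8 CPM in the CYT and 28.6, 27.9 and 34.1 CPM in the IL-1βlow + CYT libraries. Each step down from untreated to IL-1βlow, to IL-1βlow + CYT and to CYT was without overlap. Anln fell with CYT, at a log2 fold change of -1.58 (SE 0.11, edgeR adjusted p = 2.3e-08) and rose in IL-1βlow + CYT against CYT cells by 1.09 (SE 0.11, edgeR adjusted p = 2.6e-06). A row named Anlnl1, at 61.2 ± 3.74 CPM in untreated and 18.6 ± 0.868 CPM in CYT cells, may share reads with Anln, and Matcap2 overlaps it, so its values are uncertain. Racgap1, a subunit of centralspindlin, was at 159, 166 and 172 CPM in the untreated, 167, 176 and 163 CPM in the IL-1βlow, 107, 117 and 108 CPM in the CYT and 160.1, 171 and 143 CPM in the IL-1βlow + CYT libraries. CYT libraries were lowest, and the other groups overlapped. It was lower, at a log2 fold change of -0.58 (SE 0.08, edgeR adjusted p = 2.4e-05), and its partner Kif23 at -1.37 (SE 0.15, edgeR adjusted p = 2.6e-06). Relative to Racgap1 and to the untreated mean, log2 Kif23 was -0.79 ± 0.228 in the CYT libraries and -0.22 ± 0.429 in those given IL-1βlow + CYT (SD, n = 3).

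Ect2, an exchange factor that acts at the cell equator, was at 48.3, 50.9 and 42.3 CPM in the untreated, 32.8, 28.8 and 49.6 CPM in the IL-1βlow, 14.0, 14.9 and 15.6 CPM in the CYT and 25.1, 24.2 and 44.2 CPM in the IL-1βlow + CYT libraries. IL-1βlow + CYT replicate 3 lay among the untreated libraries and the other 2 replicates well below. Ect2 fell with CYT, at a log2 fold change of -1.67 (SE 0.23, edgeR adjusted p = 2.1e-05) and rose in IL-1βlow + CYT against CYT cells by 1.07 (SE 0.23, edgeR adjusted p = 0.0014), which was 0.73 without IL-1βlow + CYT replicate 3 and 0.99 without CYT replicate 1, not past the thresholds in either. Prc1, which bundles microtubules of the central spindle, was at 150.4, 159 and 159 CPM in the untreated, 139, 128 and 149 CPM in the IL-1βlow, 69.6, 69.0 and 72.5 CPM in the CYT and 95.6, 96.9 and 114 CPM in the IL-1βlow + CYT libraries. The order of the groups was that of Anln, again without overlap. Prc1 fell with CYT, at a log2 fold change of -1.15 (SE 0.09, edgeR adjusted p = 5.2e-08). Its difference between IL-1βlow + CYT and untreated cells, -0.61 (SE 0.09, edgeR adjusted p = 9.9e-05), had the smallest adjusted p of the list in that comparison.

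All 6 genes of condensin and chromosome structure were lower with CYT at an adjusted p under 0.05, and 4 fell past the thresholds. Top2a, the topoisomerase that untangles sister chromatids, was at 245, 269.9 and 272 CPM in the untreated, 210.4, 197 and 251 CPM in the IL-1βlow, 66.1, 55.1 and 60.6 CPM in the CYT and 147, 162 and 215 CPM in the IL-1βlow + CYT libraries. CYT libraries lay far below all others, and IL-1βlow + CYT libraries lay between CYT and untreated. It fell, with a log2 fold change of -2.11 (SE 0.14, edgeR adjusted p = 9.9e-09), rose in IL-1βlow + CYT against CYT cells by 1.53 (SE 0.13, edgeR adjusted p = 7.4e-07), and stayed below untreated cells, at -0.59 (SE 0.13, edgeR adjusted p = 0.0045). Mki67, which coats mitotic chromosomes and is the usual marker of dividing cells, was at 309, 311 and 331 CPM in the untreated, 297, 291 and 288 CPM in the IL-1βlow, 120.5, 112 and 109 CPM in the CYT and 210.4, 217 and 262 CPM in the IL-1βlow + CYT libraries. All 4 groups were separate in the order untreated, IL-1βlow, IL-1βlow + CYT and CYT. With CYT it fell, at a log2 fold change of -1.48 (SE 0.09, edgeR adjusted p = 4.8e-09), and it was higher in IL-1βlow + CYT than in CYT cells by 1.01 (SE 0.09, edgeR adjusted p = 6.7e-07), a value within 0.05 of the minimum. That call was lost with RLE size factors, DESeq2, no filter or at least 10 counts in every library, and without any 1 of 6 libraries, lowest at 0.91 without IL-1βlow + CYT replicate 3.

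Smc4, one of the 2 ATPases of the ring, was at 43.5, 41.2 and 30.1 CPM in the untreated, 21.0, 18.3 and 35.8 CPM in the IL-1βlow, 18.7, 17.1 and 26.8 CPM in the CYT and 18.7, 18.4 and 36.7 CPM in the IL-1βlow + CYT libraries. The IL-1βlow, CYT and IL-1βlow + CYT libraries overlapped, with replicate 3 highest in each of them and lowest in the untreated group. Its log2 fold change with CYT was -0.87 (SE 0.29, edgeR adjusted p = 0.017), and 0.23 (SE 0.29, edgeR adjusted p = 0.53) between IL-1βlow + CYT and CYT cells. Smc2, the other ATPase, was at 63.5, 64.1 and 56.2 CPM in the untreated, 42.8, 40.9 and 54.4 CPM in the IL-1βlow, 20.8, 18.8 and 20.0 CPM in the CYT and 30.4, 34.8 and 55.9 CPM in the IL-1βlow + CYT libraries. CYT libraries lay well below all others. Smc2 fell with CYT, at a log2 fold change of -1.62 (SE 0.19, edgeR adjusted p = 3.7e-06) and rose in IL-1βlow + CYT against CYT cells by 1.02 (SE 0.19, edgeR adjusted p = 4.1e-04), a call lost in 11 alternatives. The value was 0.999 with RLE size factors, 0.9996 with DESeq2, 0.984 with no filter, 0.995 with the replicate block, and under 1 without any 1 of 7 libraries, lowest at 0.71 without IL-1βlow + CYT replicate 3. The regulatory subunit Ncapg was at 12.8, 11.96 and 10.3 CPM in the untreated, 7.38, 5.28 and 9.13 CPM in the IL-1βlow, 4.62, 3.15 and 4.96 CPM in the CYT and 5.35, 7.06 and 11.5 CPM in the IL-1βlow + CYT libraries, and fell with CYT, at a log2 fold change of -1.45 (SE 0.27, edgeR adjusted p = 3.2e-04). Ncapd2, the HEAT-repeat subunit, was at 154, 153 and 174 CPM in the untreated, 180.1, 187 and 164 CPM in the IL-1βlow, 85.3, 89.5 and 69.6 CPM in the CYT and 156, 154 and 133 CPM in the IL-1βlow + CYT libraries. Its IL-1βlow + CYT libraries overlapped the untreated ones and all lay above the CYT libraries. It was lower with CYT, at -0.98 (SE 0.10, edgeR adjusted p = 1.9e-06), just under the minimum.

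Cells given the low dose before CYT held more of these transcripts than cells given CYT alone. Between IL-1βlow + CYT and CYT cells, 19 of the 53 genes rose past the thresholds, against 6.54% of all genes tested, and none fell (5.92% of all genes). At an adjusted p under 0.05, 44 were higher, against 25.3%. The median log2 fold change was 0.86, and 0.02 over all genes tested, and all 53 estimates were above 0, from 0.11 for Gtse1 to 1.56 for Cdca3. All IL-1βlow + CYT libraries lay above all CYT libraries for 45 genes (26.8% of all genes). The 9 genes not past an adjusted p of 0.05 were Kif18a, Ckap2, Dlgap5, Gtse1, Bub1, Bub3, Ttk, Sgo1 and Smc4. By class, 3 of 9 kinases and cyclins passed, 2 of 4 proteolysis genes, 3 of 7 motors, none of 9 spindle assembly genes, 6 of 14 kinetochore and checkpoint genes, 2 of 4 cytokinesis genes and 3 of 6 condensin and chromosome genes. In the spindle assembly class, 6 of 9 had an unadjusted and adjusted p under 0.05 from edgeR, and Aspm came nearest to the minimum with 0.99 (SE 0.12, edgeR adjusted p = 1.4e-05). The largest value of each class was that of Ccna2 (1.22), Cdca3 (1.56), Kif20a (1.29), Aspm (0.99), Spc25 (1.53), Anln (1.09) and Top2a (1.53). The smallest was that of Cdc25c (0.37), Ube2c (0.54), Kif18a (0.65), Gtse1 (0.11), Bub3 (0.22), Racgap1 (0.52) and Smc4 (0.23). Without IL-1βlow + CYT replicate 3, 14 genes passed, and the edgeR adjusted p was under 0.05 for 43 (share of all genes not computed). Anln, Kif23, Kif4a, Ect2, Smc2 and Mki67 were the genes lost, at log2 fold changes from 0.71 to 0.99, and Cdc20 was gained at 1.08. Kif23 (0.98) and Kif4a (0.99) were also lost without CYT replicate 3. When replicate number entered the fit as a block, 18 passed and Smc2 did not.

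Levels in IL-1βlow + CYT cells stayed below those of untreated cells for part of the list. None of the 53 genes met the thresholds in edgeR, exactTest or DESeq2, against 2.14% of all genes lower and 3.85% higher in edgeR, and 20 genes were lower at an adjusted p under 0.05 from edgeR, against 9.59% of all genes tested. None was higher (12.2% of all genes). At an unadjusted p under 0.05, 28 were lower (16.1% of all genes). The median log2 fold change was -0.32, with estimates from -0.79 for Hmmr to 0.07 for Aurkb. All IL-1βlow + CYT libraries lay below all untreated ones for 26 genes (17.1% of all genes). The 20 genes held 6 of 9 spindle assembly genes and 3 of 6 condensin and chromosome genes (Smc2, Top2a and Mki67), but 2 of 9 kinases and cyclins, Ccnb1 and Ccna2. The largest differences of the other classes were those of Ccna2 (-0.39), Ube2c (-0.32), Kif20b (-0.79), Spc25 (-0.70), Prc1 (-0.61) and Smc4 (-0.64). The smallest in each class were those of Cdc25b (0.00), Pttg1 (-0.11), Kif18a (-0.03), Gtse1 (-0.04), Bub3 (0.05), Racgap1 (-0.06) and Ncapd2 (-0.12). The count of 20 was 13 without IL-1βlow + CYT replicate 2 and between 14 and 21 without any 1 of the others but replicate 3 of that group. Without IL-1βlow + CYT replicate 3 the count at an adjusted p under 0.05 was 27 (share of all genes not computed). In that fit 3 genes passed the thresholds, namely Hmmr, Kif20b and Smc4 at -1.07, -1.16 and -1.05.

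The low dose on its own gave no call. Between IL-1βlow and untreated cells, no mitotic gene met the study's thresholds for that comparison (an adjusted p below 0.01 with a log2 fold change of more than 0.6 in size) in edgeR, exactTest or DESeq2, against 0.168% of all genes lower and 0.265% higher in edgeR, and none had an adjusted p under 0.05 from edgeR, against 0.412% of all genes lower and 0.935% higher. At an unadjusted p under 0.05, 6 were lower and 1 was higher (6.79% and 7.05% of all genes). The median was -0.08, with estimates from -0.68 for Ncapg to 0.26 for Pttg1. All IL-1βlow libraries lay below all untreated ones for 8 genes (10.6% of all genes), Hmmr, Aspm, Cenpe, Prc1, Anln, Smc2, Ncapg and Mki67, and above them for Aurkb, Cdc25b and Pttg1 (13% of all genes). Class medians were -0.33 for condensin and chromosome structure, -0.22 for motors, 0.04 for kinases and cyclins and 0.11 for proteolysis. Between libraries numbered 1, 2 and 3 they were -0.39, -0.55 and -0.10 for condensin and chromosome structure and -0.26, -0.29 and -0.03 for motors. For kinases and cyclins they were 0.08, 0.09 and 0.00, and for proteolysis 0.18, 0.23 and -0.01. The differences between these classes were thus small in replicate 3. The largest absolute value of each other class was that of Aurkb (0.22), Kif18a (-0.54), Hmmr (-0.54), Bub1 (-0.38) and Ect2 (-0.35), and the smallest of each class that of Ccnb2 (-0.01), Cdca3 (0.03), Kif2c (0.02), Gtse1 (-0.01), Cenpa (-0.04), Racgap1 (0.03) and Mki67 (-0.12). Standard errors of single genes ranged from 0.07 for Tpx2 to 0.37 for Kif18a.

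In cells that had received the low dose, CYT was also followed by lower estimates for most of the list, but none passed. Between IL-1βlow + CYT and IL-1βlow cells no mitotic gene met the thresholds in edgeR, exactTest or DESeq2, against 0.963% of all genes lower and 2.92% higher in edgeR, and 8 were lower at an adjusted p under 0.05 from edgeR, against 4.99% of all genes. They were Ube2c, Tpx2, Dlgap5, Cenpe, Cenpf, Prc1, Anln and Mki67, with log2 fold changes from -0.60 for Cenpf to -0.25 for Tpx2. At an unadjusted p under 0.05, 27 were lower (10.5% of all genes). The median was -0.26, and -0.01 over all genes. By class, the largest absolute values were those of Plk1 (-0.39), Cdc20 (-0.41), Kif18a (0.51), Dlgap5 (-0.40), Cenpf, Prc1 (-0.44) and Mki67 (-0.34), and the smallest those of Cdc25c (0.09), Cdca3 (-0.28), Kif23 (-0.14), Gtse1 (-0.03), Sgo1 (0.00), Racgap1 (-0.09) and Smc4 (-0.03). The count of 8 depended on single libraries, as it was 1 without IL-1βlow + CYT replicate 2, 3 without IL-1βlow replicate 3, 4 without IL-1βlow replicate 1 or IL-1βlow + CYT replicate 1, and 16 without IL-1βlow + CYT replicate 3. It was 15 with upper-quartile factors (5.76% of all genes), 14 with at least 10 counts in every library (5.59%) and 13 with DESeq2 (5.75%). When replicate number entered the fit as a block it was 23, against 7.83% of all genes, and same-numbered libraries of these groups deviated together (r of 0.18, 0.47 and 0.52).

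The test of the difference between the CYT response with and without the low dose was the interaction term of the same fit. The term was positive for all 53 genes. This means a smaller decrease with CYT after the low dose, or none, as for Mad2l1 and Kif18a. Levels with the low dose alone also enter the term, and these ran from 62.2% of the untreated mean for Ncapg to 119% for Pttg1. The term passed the thresholds for 25 genes, against 5.48% of all genes tested with a positive and 5.2% with a negative term. For 43 genes the edgeR adjusted p was under 0.05, against 18.1%. The median was 1.01, and 0.04 over all genes tested. The largest terms were those of Spc25 at 1.82 (SE 0.20, edgeR adjusted p = 1.5e-05), Top2a at 1.78 (SE 0.19, edgeR adjusted p = 1.2e-05), Ncapg at 1.59 (SE 0.38, edgeR adjusted p = 0.0048) and Cdca3 at 1.53 (SE 0.19, edgeR adjusted p = 4.3e-05). Ndc80, Nuf2 and Smc2 followed at 1.51, 1.45 and 1.43. The term is built from the same libraries as the comparisons above and is not separate evidence. By class, 8 of 14 kinetochore and checkpoint genes, 4 of 7 motors, 4 of 6 condensin and chromosome genes, 3 of 9 kinases and cyclins, 2 of 4 proteolysis genes, 2 of 4 cytokinesis genes and 2 of 9 spindle assembly genes passed. The smallest terms were those of Bub3 (0.09), Gtse1 (0.12) and Dlgap5 (0.19). In the other classes they were those of Cdc25b (0.23), Ube2c (0.47), Kif2c (0.89), Racgap1 (0.49) and Ncapd2 (0.72). Without IL-1βlow + CYT replicate 3, 24 terms passed, and the edgeR adjusted p was under 0.05 for 42 (share of all genes not computed). The calls of Pttg1, Kif11, Ncapg, Ect2, Plk1 and Cenpe were lost in 11, 7, 5, 4, 2 and 1 alternatives.

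The spread within groups was not the same for all of the list. In IL-1βlow + CYT cells, replicate 3 differed from the mean of replicates 1 and 2 by between -0.53 for Plk1 and 1.28 for Kif18a on the log2 scale. The 5 genes highest in it were Kif18a, Smc4, Bub1, Kif20b and Ncapg, and the 3 lowest were Plk1, Cdca3 and Cdca8. In IL-1βlow cells the range was -0.22 for Cdca8 to 1.07 for Kif18a, in CYT cells -0.52 for Cdc20 to 0.58 for Smc4, and in untreated cells -0.56 for Kif20b to 0.25 for Bub1b. Rn45s took 11.1% of the counts of IL-1βlow + CYT replicate 3, the highest share of the 12 libraries, and its part in this spread was not tested.

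**Figure D4:**
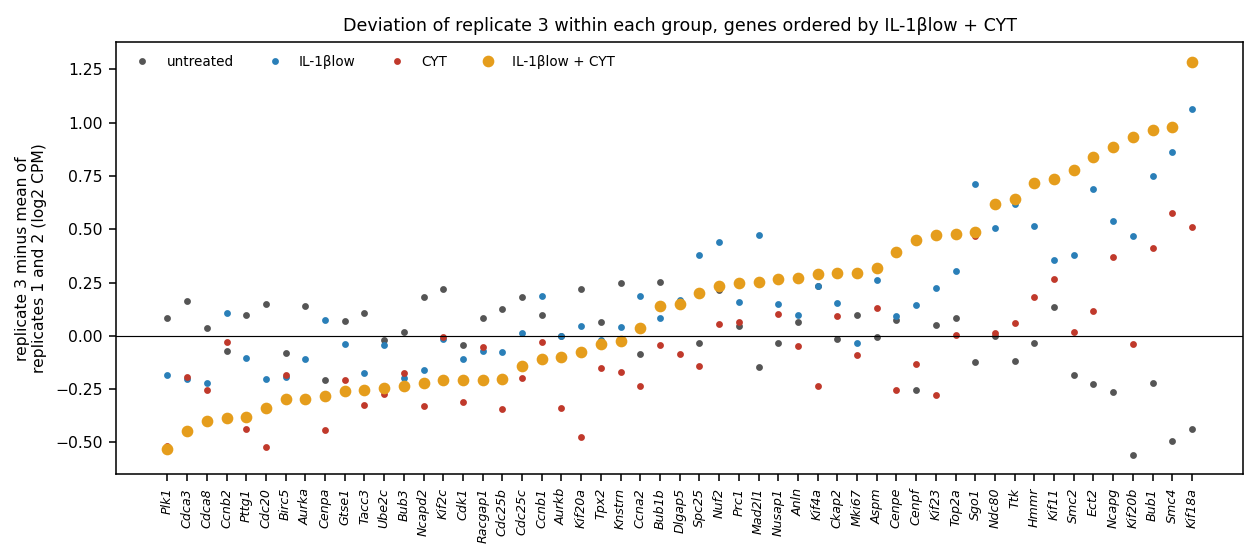
Replicate 3 minus the mean of replicates 1 and 2 in log2 CPM (y axis) for each of the 53 genes, ordered by IL-1βlow + CYT (large yellow points), with untreated (grey), IL-1βlow (blue) and CYT (red) as small points. The IL-1βlow + CYT values run from -0.53 for Plk1 to 1.28 for Kif18a.

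Of 98 other genes of the same pathway, 96 passed the filter on low counts. With CYT, 28 of these fell and 5 rose past the thresholds, against 11.6% and 10% of all genes tested, and the edgeR adjusted p was under 0.05 for 66 that were lower and 7 that were higher, against 31.7% and 30.6%. Between IL-1βlow + CYT and CYT cells, 14 rose and 4 fell, against 6.54% and 5.92%. Other kinetochore and checkpoint genes held 12 of the 28 decreases in 26 genes, other motors, spindle and cytokinesis genes 8 in 18, other mitotic kinases and phosphatases 5 in 13, and the anaphase-promoting complex and separase 1 in 14, which was Espl1. Espl1, separase, went from 73.8 ± 1.95 CPM in untreated to 23.2 ± 3.96 in CYT and 68.4 ± 9.70 in IL-1βlow + CYT cells (SD, n = 3), with log2 fold changes of -1.67 (SE 0.14, edgeR adjusted p = 1.2e-07) and 1.56 (SE 0.14, edgeR adjusted p = 6.8e-07). Pbk, a mitotic kinase, and Ccnf, cyclin F, fell with CYT, at a log2 fold change of -1.84 (SE 0.18, edgeR adjusted p = 7.2e-07) and -1.79 (SE 0.15, edgeR adjusted p = 1.8e-07). Wee1, in the same group of kinases and phosphatases, rose with CYT past the thresholds, at a log2 fold change of 1.04. Its call was lost with upper-quartile factors (0.94), without untreated replicate 3 (0.99) and without CYT replicate 3 (0.96). Cenpw, a protein of the inner kinetochore, fell from 18.4 ± 1.76 to 3.76 ± 0.880 CPM, at -2.29 (SE 0.17, edgeR adjusted p = 3.6e-08). Kif14, a motor of cytokinesis, fell, with a log2 fold change of -1.67 (SE 0.15, edgeR adjusted p = 2.9e-07), and Ncapg2, a subunit of the second condensin complex, at -1.23 (SE 0.16, edgeR adjusted p = 1.6e-05). Depdc1 also fell, at -2.39 (SE 0.56, edgeR adjusted p = 0.0021), but at levels under 5 CPM in every library, and its call was lost without CYT replicate 2 (edgeR adjusted p = 0.012).

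Of 14 genes that control the transcription of mitotic genes, 1 fell and 1 rose past the thresholds with CYT, against 11.6% and 10% of all genes tested. Foxm1 was at 67.9, 70.1 and 76.0 CPM in the untreated, 78.5, 74.6 and 72.9 CPM in the IL-1βlow, 47.9, 49.5 and 45.7 CPM in the CYT and 62.4, 67.0 and 56.5 CPM in the IL-1βlow + CYT libraries. CYT libraries lay under all others. Its log2 fold change with CYT was -0.58 (SE 0.09, edgeR adjusted p = 4.0e-05), and 0.38 (SE 0.09, edgeR adjusted p = 0.0021) between IL-1βlow + CYT and CYT cells. Mybl2, B-MYB, had mean levels of 73.5 ± 1.31, 77.5 ± 8.44, 37.1 ± 7.39 and 65.9 ± 10.1 CPM in the same order of groups (SD, n = 3), with -0.99 (SE 0.14, edgeR adjusted p = 3.5e-05) for CYT against untreated, just under the minimum. Both overlap another annotated gene. Among the subunits of the DREAM and MuvB complexes, Rbl1, the pocket protein p107, fell, with a log2 fold change of -1.03 (SE 0.22, edgeR adjusted p = 9.3e-04), a call lost without untreated replicate 1 (-0.97), without CYT replicate 2 (-0.92) and with no filter (-0.96). Lin37 rose from 18.0 ± 1.20 to 51.5 ± 5.17 CPM, by 1.51 (SE 0.11, edgeR adjusted p = 2.4e-08), and was at 21.8 ± 0.830 CPM in IL-1βlow + CYT cells. Lin37 overlaps Hspb6 in GRCr8, and strand was not given for the counting, so its reads may be shared.

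Of the 7 tested genes of G2 arrest and CDK inhibition, 3 rose with CYT and none fell, against 10% and 11.6% of all genes tested. Cdkn1a, p21, which inhibits cyclin-dependent kinases, was at 54.0, 51.3 and 48.7 CPM in the untreated, 34.4, 41.5 and 40.5 CPM in the IL-1βlow, 94.3, 123 and 104 CPM in the CYT and 44.9, 47.0 and 41.6 CPM in the IL-1βlow + CYT libraries. CYT libraries lay above all others, and IL-1βlow libraries lay below the untreated ones. It rose with CYT by 1.06 (SE 0.11, edgeR adjusted p = 1.0e-06), a call lost without CYT replicate 2 (0.95) and with upper-quartile factors (0.96), and fell in IL-1βlow + CYT against CYT cells, at -1.26 (SE 0.11, edgeR adjusted p = 5.5e-07). Gadd45b, a stress-induced protein of the GADD45 family, was at 7.39, 7.58 and 7.60 CPM in the untreated, 4.82, 6.38 and 3.58 CPM in the IL-1βlow, 36.6, 67.3 and 71.3 CPM in the CYT and 7.17, 8.30 and 9.75 CPM in the IL-1βlow + CYT libraries. CYT libraries lay far above all others. It rose by 2.96 (SE 0.24, edgeR adjusted p = 1.1e-07). Gadd45a, which can inhibit CDK1 with cyclin B, was at 21.1, 22.3 and 21.2 CPM in the untreated, 35.5, 29.0 and 33.9 CPM in the IL-1βlow, 119.5, 129 and 139 CPM in the CYT and 60.2, 58.0 and 69.8 CPM in the IL-1βlow + CYT libraries. All 4 groups were separate, in the order untreated, IL-1βlow, IL-1βlow + CYT and CYT, the reverse of Mki67. It rose with CYT by 2.59 (SE 0.11, edgeR adjusted p = 1.1e-10), fell in IL-1βlow + CYT against CYT cells, at -1.04 (SE 0.10, edgeR adjusted p = 1.3e-06), a call lost without IL-1βlow + CYT replicate 2 (-0.99) and with upper-quartile factors (-0.97), and stayed above untreated cells by 1.54 (SE 0.10, edgeR adjusted p = 5.6e-08). With 0.61 (SE 0.10, edgeR adjusted p = 0.0085) it was the one gene of the 96 that passed in IL-1βlow against untreated cells, where the minimum was 0.6. That call was lost with library totals alone, at least 10 counts in every library or only the 2 groups compared, and without any 1 of 11 libraries.

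**Figure D5:**
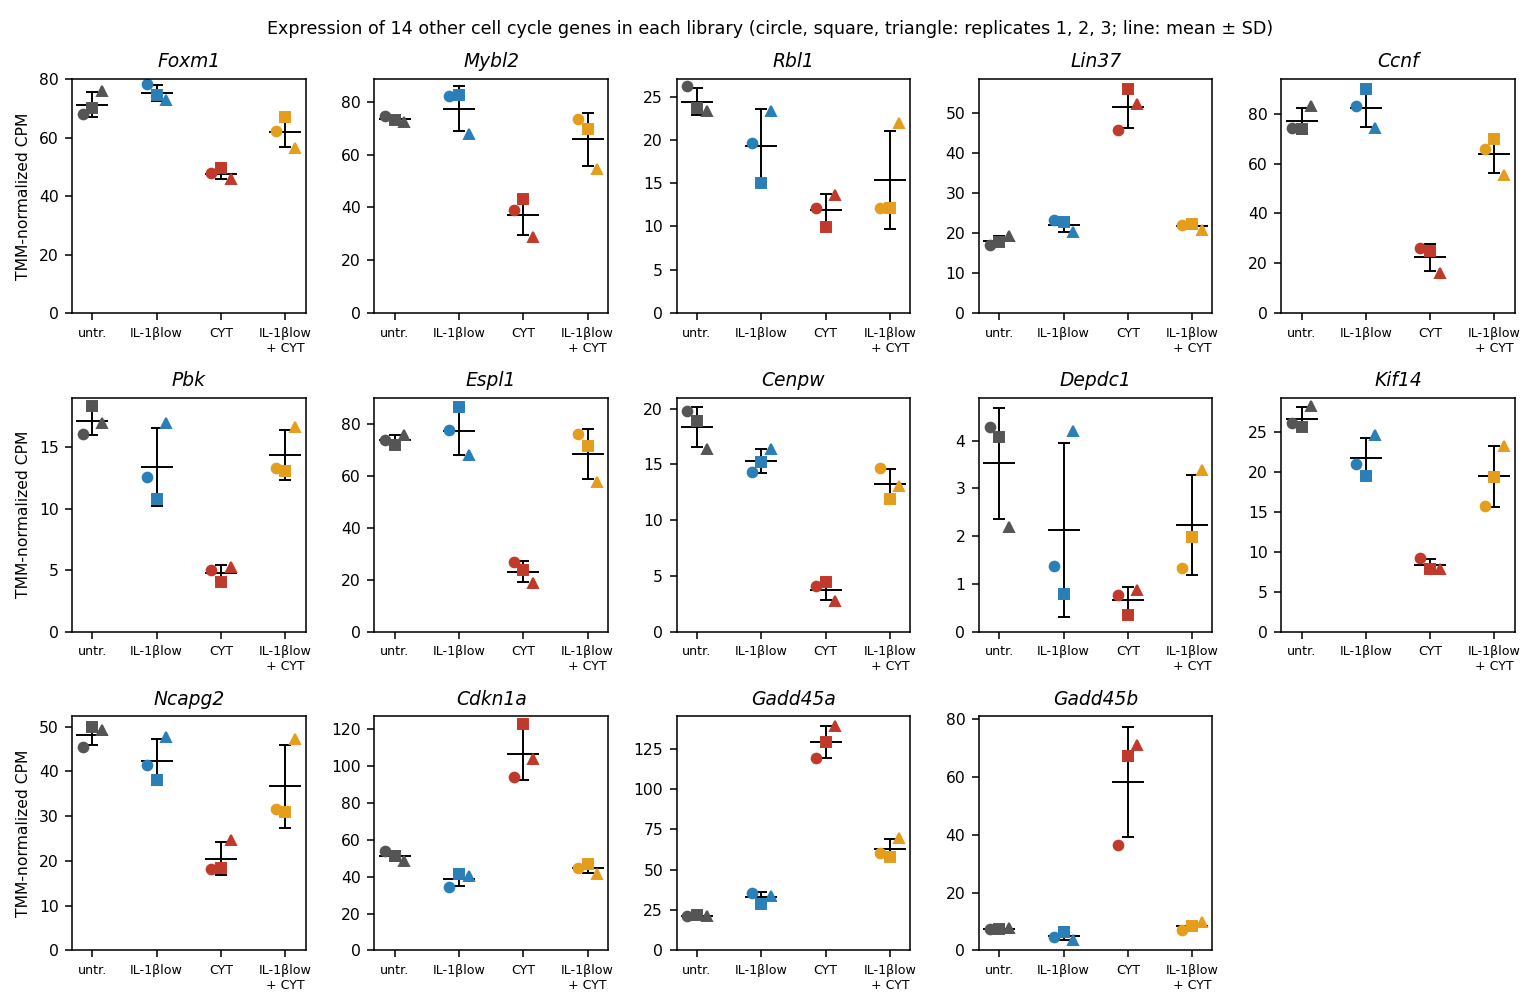
TMM-normalized CPM (y axis, from 0) of 14 other cell cycle genes in each library of the 4 groups, with circle, square and triangle for replicates 1, 2 and 3 and a line with a bar for the mean ± SD of 3 libraries. Lin37, Cdkn1a, Gadd45a and Gadd45b are highest in CYT libraries, and the other 10 are lowest there, with some overlap for Rbl1 and Depdc1.

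In the GRCr8 annotation, 22 of the 53 genes overlap another annotated gene and 14 overlap a protein-coding one. The strand setting of the counting was not given in the sources used here, so reads in the overlaps cannot be told apart. Of the 29 overlapping genes, 11 passed the filter on low counts. Of these 11, 1 gene, Fam210b, fell with CYT past the thresholds, against 11.6% of all genes tested. At an edgeR adjusted p under 0.05, Fam210b, Usp5, Ide, Cdc23, Pdzd11, Ndufaf1 and Matcap2 were lower, against 31.7% of all genes. Mettl15 was higher by that rule, against 30.6%. The log2 fold changes of the 11 genes with CYT ranged from -1.08 to 0.60. Their median was -0.49, against -1.22 for the 53 mitotic genes and -0.04 over all genes tested. The part of shared reads in either was not tested.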

How the data were processed

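Whole-number read counts per gene were deposited by the authors for all 12 libraries, made from TruSeq poly(A) libraries. The submitters' processing notes name FastQC, featureCounts and R 4.3.3. The strand setting was not given in the sources used here. The deposited counts had no normalization.

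From these counts, genes over 1 CPM in at least 2 libraries were kept, TMM factors were computed, and one model of the 4 groups with 8 residual degrees of freedom was fitted to all 12 libraries in R 4.3.3 with edgeR 4.0.16 and limma 3.58.1. Groups were compared by the quasi-likelihood test, with p-values adjusted by Benjamini-Hochberg for all genes kept. The thresholds were an adjusted p below 0.01 with a log2 fold change of more than 1 in size, or 0.6 for IL-1βlow against untreated. A second rule used an adjusted p under 0.05 alone. Levels are CPM on TMM-scaled library sizes, and SDs are over 3 libraries. The fit was tested on simulated counts for CYT against untreated only, with the same dispersion (spread between replicates) for all genes.

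Alternatives were edgeR's exactTest (the study's own test), DESeq2 1.42.0, other scalings and filters, a replicate block, fits of only the 2 groups compared, and leaving out each library. Same-numbered libraries deviated together in all 3 pairs (r over 0.1) among the 3 cytokine-treated groups. Between untreated and the other groups only some pairs were over 0.1, with r from -0.19 to 0.18. The main fit used group alone and paired no libraries, while the replicate block covered all libraries, untreated included. The labels name no shared culture or day. Named genes were 19 fixed members, the extremes of each class and comparison, members whose interaction term passed, the 2 largest changes in each group of other pathway genes (1 such gene is not reported here), and Foxm1, Mybl2 and Cdkn1a. Spc25, Ndc80, Nuf2 and other members shown by library, genes that overlap members, and Wee1 were added after their values were seen. The members, lists and rules were chosen with earlier results of these data known. Whether the biological replicates came from separate cultures is not stated further, so p-values measure the spread between these libraries.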

Additional observations from a re-analysis of the deposited data

Results flagged for a closer look

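For 25 of the 53 mitotic genes, the response to CYT differed between cells with and without the low dose by the interaction term of the edgeR fit, past an adjusted p of 0.01 and a difference of 1 on the log2 scale. All 25 terms were positive, so the decrease with CYT was smaller after the low dose, or absent, as for Mad2l1, Ncapg and Nuf2. Mean levels in IL-1βlow and IL-1βlow + CYT cells were 42.2 and 49.7 CPM for Mad2l1, 7.26 and 7.96 for Ncapg and 18.3 and 18.5 for Nuf2. The log2 differences were largest for Spc25 (1.82), Top2a (1.78), Ncapg (1.59), Cdca3 (1.53), Ndc80 (1.51), Nuf2 (1.45), Smc2 (1.43) and Ect2 (1.42). They were Hmmr (1.34), Ccna2 (1.33), Kif4a (1.31), Cenpa (1.27), Cenpf (1.24), Anln (1.24), Kif23 (1.23) and Mad2l1 (1.22) for the next genes in order. The remaining values were Aspm (1.20), Kif20a (1.20), Ccnb2 (1.20), Mki67 (1.13), Bub1b (1.116), Plk1 (1.11), Cenpe (1.11), Kif11 (1.07) and Pttg1 (1.01). These terms rest on the same 12 libraries as the comparisons already given. The calls of 6 of the genes were lost in some of the alternatives. Ncapg did not pass without untreated replicate 1 or 2, IL-1βlow replicate 1 or 2 or CYT replicate 2, at edgeR adjusted p-values from 0.015 to 0.016. Ect2 did not pass without untreated replicate 1 or 2 or IL-1βlow replicate 1 or 2, at edgeR adjusted p-values from 0.010 to 0.013. Kif11 was lost without any 1 of 7 libraries, Plk1 without CYT replicate 3 (0.94) or IL-1βlow + CYT replicate 1 (0.99), and Pttg1 without any 1 of 7 libraries and with RLE size factors, DESeq2, no filter or at least 10 counts in every library. Without IL-1βlow + CYT replicate 3, Kif11 (0.78) and Cenpe (0.97) no longer passed and Ccnb1 (1.03) did.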

How the results depend on the processing

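Without a fold change minimum, at an adjusted p under 0.05 from edgeR, genes were counted in both directions together. Mitotic genes numbered 50 for CYT against untreated, 44 for IL-1βlow + CYT against CYT and 20 for IL-1βlow + CYT against untreated. They numbered 8 for IL-1βlow + CYT against IL-1βlow and 43 for the interaction. Other pathway genes, an alternative added after seeing the data, numbered 73, 72, 12, 6 and 59, and 2 for IL-1βlow against untreated. The shares of all genes, lower and then higher, were 31.7% and 30.6%, 25.5% and 25.3%, 9.59% and 12.2%, 4.99% and 7.96%, and 19.1% and 18.1%. For IL-1βlow against untreated they were 0.412% and 0.935%. Upper-quartile factors moved the median log2 fold change of the mitotic genes to -1.32 (CYT against untreated), 0.94 (IL-1βlow + CYT against CYT), -0.28 (IL-1βlow + CYT against IL-1βlow) and 1.07 (interaction). With no filter on low counts the medians were -1.15 for CYT against untreated and -0.24 for IL-1βlow + CYT against IL-1βlow, 1 mitotic gene, Smc4, passed in IL-1βlow against untreated, and 2 other pathway genes did. The median for IL-1βlow + CYT against IL-1βlow was -0.26 with RLE size factors, DESeq2 or the replicate block, -0.28 with library totals alone or at least 10 counts in every library, and -0.25 with only the 2 groups compared. The count of other pathway genes in IL-1βlow against untreated was 0 with library totals alone, at least 10 counts in every library or only the 2 groups compared.

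Leaving out 1 library at a time, the mitotic genes that passed numbered 32 to 34 for CYT against untreated, 14 to 21 for IL-1βlow + CYT against CYT, 0 to 3 for IL-1βlow + CYT against untreated, 0 for both IL-1βlow against untreated and IL-1βlow + CYT against IL-1βlow, and 21 to 26 for the interaction. Their medians ranged from -1.26 to -1.12, 0.81 to 0.90, -0.37 to -0.30, -0.11 to -0.06, -0.28 to -0.21 and 0.92 to 1.125 in the order CYT against untreated, IL-1βlow + CYT against CYT, IL-1βlow + CYT against untreated, IL-1βlow against untreated, IL-1βlow + CYT against IL-1βlow and interaction. Other pathway genes that passed numbered 29 to 34, 14 to 20, 1 to 5, 0 to 1, 0 and 12 to 28 in that order, with 12 without IL-1βlow replicate 2, 28 without IL-1βlow replicate 3 and 5 without IL-1βlow + CYT replicate 3. For single genes, 6472 values kept their direction and side of the threshold (a change of sign where neither setting made a call was counted as kept), 65 were lost, 35 were gained and none reversed. Smc2 in IL-1βlow + CYT against CYT and Pttg1 in the interaction were each lost in 11 alternatives, and Mki67 in IL-1βlow + CYT against CYT in 10. The causes were not tested. For fits without a library, the share of all genes was not computed.

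Groups share replicate numbers, but the labels do not say that a number marks a shared culture or day. The deviations of same-numbered libraries correlated at r from -0.19 to 0.52, over 0.1 in 13 of 18 pairs. All 3 pairs were over 0.1 for IL-1βlow + CYT with IL-1βlow and for IL-1βlow + CYT with CYT, and not for any pair of groups with untreated. The main fit used group alone and paired no libraries. The replicate block was 1 fit of all libraries, so it applied the numbers to the untreated ones as well. With the replicate block, 33, 18, 0, 0, 0 and 25 mitotic genes passed, against 3246, 1870, 949, 141, 611 and 1767 of the 14324 genes tested in either direction. The edgeR adjusted p was under 0.05 for 52, 46, 29, 1, 23 and 47 mitotic genes. With the block, 35.7% of all genes were lower by that rule for CYT against untreated and 15.8% for IL-1βlow + CYT against untreated. The share was 2.22% for IL-1βlow against untreated and 7.83% for IL-1βlow + CYT against IL-1βlow. For the counts of 46 and 47, which were higher, no share of all genes is given. Over all genes, replicates differed by more than counting error. For the mitotic genes with the fewest reads, with counts down to 50 in a library, counting error was not small. The 3 libraries a group limit what could be resolved.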
